A study of Homo sapiens with 4 samples.

Results

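The E2F and retinoblastoma families were followed in human RPE1 cells after depletion of DNA topoisomerase 2-beta (TOP2B), the topoisomerase that resolves DNA supercoils and tangles by cutting and rejoining both strands. The 9 genes were listed by symbol, after the Ensembl identifiers of the count table had been paired with symbols, and they were E2F1, E2F2, E2F3, E2F4, E2F7, E2F8, RB1, RBL1 and RBL2. They are 9 of the 60725 genes in the table, and all 9 were among the 15356 genes with enough reads to be tested.

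RNA-seq of polyadenylated RNA was available for 2 control and 2 TOP2B knockdown libraries. All 4 came from hTERT-RPE1 cells, a telomerase-immortalized line derived from retinal pigment epithelium, that also carry the SunTag system (line name RPE1 SunTag). Cells were transfected with 10 nM siRNA, split and transfected a second time after 48 h, and harvested 72 h later, on day 5. Control cells received a single non-targeting siRNA, named scramble in the sample titles, and knockdown cells received a pool of siRNAs against TOP2B, so that loss of TOP2B and the difference between the siRNAs cannot be told apart. The 2 libraries of each group are described by the study as independent biological replicates.

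E2F transcription factors bind DNA with a dimer partner of the TFDP family and control genes needed to enter S phase and to copy DNA. E2F1, E2F2 and E2F3 are known as activators, E2F4 works mainly in repressor complexes of resting cells, and the atypical E2F7 and E2F8 bind without a partner and switch the same genes off again late in S phase. The pocket proteins RB1, RBL1 (p107) and RBL2 (p130) hold E2Fs in check until cyclin-dependent kinases phosphorylate them, and several E2F genes are themselves E2F targets.

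The promoters were searched for words of the E2F type. The promoter table of RefSeq (GRCh38.p14) gives 300 bases for a gene, 250 before and 50 after its start, and 7 of the 9 genes have an entry at the start of their canonical transcript. RB1 (at that start) and E2F8 have none. The E2F word was searched on both strands as TTTCCCG or TTTCGCG or TTTGCCG or TTTGGCG. The promoters of E2F1, E2F2, E2F3 and RBL1 each held 2 or more of these words and are printed in full. E2F1, E2F2 and, close to the threshold, E2F3 were called higher after TOP2B knockdown, and RBL1 was not called. Whether the words bear on the levels was not tested. Capitals mark the words, read 5′ to 3′ on the strand of the gene. The positions in GRCh38.p14 are chr20:33686336-33686635 on the minus strand for E2F1, chr1:23531184-23531483 on the minus strand for E2F2, chr6:20401629-20401928 on the plus strand for E2F3 and chr20:37095948-37096247 on the minus strand for RBL1.
E2F1: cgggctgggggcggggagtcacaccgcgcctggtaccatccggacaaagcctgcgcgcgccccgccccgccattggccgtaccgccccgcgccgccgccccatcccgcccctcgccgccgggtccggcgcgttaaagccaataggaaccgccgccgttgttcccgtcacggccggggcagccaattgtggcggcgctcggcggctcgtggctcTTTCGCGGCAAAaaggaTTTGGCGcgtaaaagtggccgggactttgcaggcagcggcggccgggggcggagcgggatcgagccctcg
E2F2: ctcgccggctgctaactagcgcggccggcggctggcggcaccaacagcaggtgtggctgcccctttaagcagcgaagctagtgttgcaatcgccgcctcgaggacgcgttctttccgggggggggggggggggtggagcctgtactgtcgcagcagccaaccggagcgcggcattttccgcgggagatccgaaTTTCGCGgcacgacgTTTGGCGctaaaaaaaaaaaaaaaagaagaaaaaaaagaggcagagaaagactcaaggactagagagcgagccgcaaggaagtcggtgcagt
E2F3: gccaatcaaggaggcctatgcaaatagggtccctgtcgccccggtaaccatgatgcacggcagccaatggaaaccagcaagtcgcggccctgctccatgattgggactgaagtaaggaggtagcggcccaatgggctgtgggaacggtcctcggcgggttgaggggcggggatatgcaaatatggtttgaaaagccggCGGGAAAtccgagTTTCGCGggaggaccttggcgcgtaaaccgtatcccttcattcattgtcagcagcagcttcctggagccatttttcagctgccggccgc
RBL1: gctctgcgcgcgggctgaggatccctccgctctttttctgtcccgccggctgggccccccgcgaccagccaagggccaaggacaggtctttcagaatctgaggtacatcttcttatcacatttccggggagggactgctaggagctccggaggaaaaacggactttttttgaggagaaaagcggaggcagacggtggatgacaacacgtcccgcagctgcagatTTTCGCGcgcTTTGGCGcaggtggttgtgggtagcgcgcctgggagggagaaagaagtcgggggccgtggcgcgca

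In E2F1 the first and the second word overlap by 2 bases, so that they appear as 1 run of capitals from -37 to -26, and the third lies from -20 to -14. E2F2 carries its words from -57 to -51 and from -42 to -36, E2F3 from -52 to -46 on the opposite strand and from -39 to -33, and RBL1 from -26 to -20 and from -16 to -10. All of them sit within 60 bases upstream of the start. The promoters of E2F4, E2F7 and RBL2 held 0 words. Among all 15709 promoters of the table at a canonical start, 10.6% held at least 1 such word and 0.987% held at least 2. Among the 9954 tested genes with such a promoter the shares were 13.4% and 1.33%. A match is a stretch of letters and not a measured binding site.

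**Figure D1:**
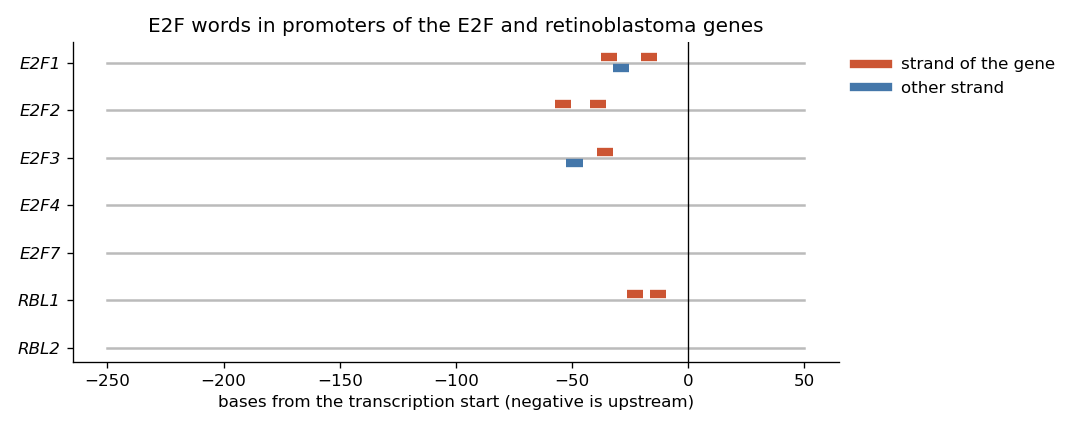
Positions of the E2F words in the 7 promoters, in bases from the transcription start. Marks above a line are words on the strand of the gene and marks below it words on the other strand; all words of E2F1, E2F2, E2F3 and RBL1 lie between -57 and -10, and E2F4, E2F7 and RBL2 have 0.

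The libraries held 20310259 to 23887013 counts in genes, and 1 CPM (the unit of levels, a count divided by the scaled library size in units of 1e6 counts) rested on 20.17 to 23.95 reads. TOP2B itself was at 154.9 and 143.5 CPM in the control libraries and at 15.3 and 13.3 CPM in the knockdown libraries, a log2 fold change of -3.38 (SE 0.14, p adj = 5.1e-06, by the quasi-likelihood test in edgeR with Benjamini-Hochberg adjustment, as for every adjusted p that follows). Of 10 markers of mature retinal pigment epithelium, RPE65 and TYR had 0 counts in all 4 libraries and 5 had at most 10 counts in every library, while MITF was at 38.2 to 44.8 CPM and OTX2 at 11.2 to 13.4 CPM. The summed level of the list was 53.6 and 51.4 CPM in control and 61 and 61.6 CPM in knockdown. Of 6 epithelial markers, KRT8 and KRT18 made up most of a sum of 1466.5 and 1785.9 CPM in control and 1134.8 and 1424.0 CPM in knockdown, CDH1 had 1 or 2 counts in each library and EPCAM 0. For 10 markers of blood, endothelial, neural and photoreceptor cells the sum was 3.01 and 2.68 CPM in control and 1.75 and 1.83 CPM in knockdown, 7 of them had at most 10 counts in every library and CD3E had 0. These 3 sums lay apart between the groups, and their part in the results was not tested. The labelled line thus kept part of its lineage markers and lacked the defining markers of the mature tissue.

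TOP2B knockdown was compared with control to ask which of these genes changed in level. The activators E2F1, E2F2 and E2F3 and the atypical E2F8 were called higher at an adjusted p below 0.05, and E2F4, E2F7, RB1, RBL1 and RBL2 did not pass the test. That makes 4 of 9 called higher, against 6.66% of all tested genes. By edgeR 0 of 9 were called lower, against 4.18% of all tested genes, and DESeq2 called 3 higher and 0 lower, against 6.91% and 4.86% of the genes it gave an adjusted p. At an unadjusted p below 0.05 the counts were 6 higher and 0 lower, against 14.5% and 11.8% of all tested genes. The same shares serve as the background for the groups of genes described further on. The 9 genes and these groups were chosen with earlier results of these data known, so the comparison with the background is not a test. The median log2 fold change of the 9 genes was 0.33, beside a median of 0.00 over all tested genes (-0.0029). In each of the 9 genes both knockdown libraries lay above both control libraries, an arrangement found in 27.7% of all tested genes (the opposite one in 26.6%). In bulk RNA, a larger share of cells in a phase of the cell cycle and more RNA per cell cannot be told apart. The study reported, from PI staining, no altered cell cycle progression after TOP2B depletion. The share of cells in each phase was not tested for these libraries.

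**Figure D2:**
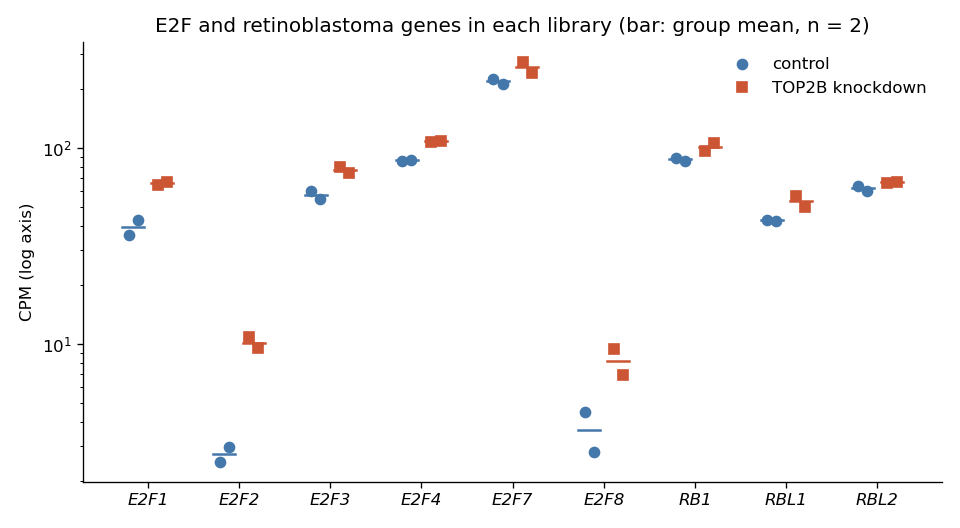
CPM of the 9 genes, side by side on a log axis, in each of the 4 libraries. Points are libraries and bars the mean of the 2 libraries of a group. For every gene both knockdown points lie above both control points, with the widest relative gap in E2F2 (10.2 against 2.74 CPM on average).

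E2F2 (ENSG00000007968, chromosome 1 from 23506438 to 23531233, minus strand, GRCh38), an activator, had the largest fold change of the 9 genes. It was at 2.51 and 2.98 CPM in the control libraries and at 10.8 and 9.52 CPM in the knockdown libraries, from 60, 68, 229 and 192 reads. The groups did not overlap, and the mean rose from 2.74 ± 0.338 to 10.2 ± 0.908 CPM (SD, n = 2). The fold change was 3.70, or 1.89 on the log2 scale (SE 0.20, 95% interval 1.45 to 2.33, p adj = 0.000754, edgeR). Without any 1 library the log2 fold change stayed between 1.77 and 2.02. Its promoter, printed above, holds its words in the same order as that of RBL1, TTTCGCG followed by TTTGGCG. The promoter of E2F1 holds these words in that order too, with a word on the other strand starting between their starts.

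E2F1 (ENSG00000101412, chromosome 20 from 33675477 to 33686385, minus strand) is the activator most often used as a readout of RB1 function. It was at 36 and 42.9 CPM in control and at 64.7 and 67.2 CPM in knockdown. Both knockdown libraries were clearly above the control range, and the means were 39.4 ± 4.95 and 66 ± 1.74 CPM (SD, n = 2). On the log2 scale E2F1 rose by 0.74 (SE 0.13, 95% interval 0.46 to 1.03, p adj = 0.00685, edgeR), with values of 0.62 to 0.88 when any 1 library was left out.

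E2F3 (ENSG00000112242, chromosome 6 from 20401879 to 20493714, plus strand), the third activator, lay close to the threshold. Its level was 60.6 and 54.7 CPM in control and 80.2 and 74.7 CPM in knockdown, with means of 57.6 ± 4.22 and 77.5 ± 3.88 CPM (SD, n = 2). The groups did not overlap, and the log2 fold change was 0.43 (SE 0.12, 95% interval 0.16 to 0.69, p adj = 0.0496, edgeR). The call was lost with DESeq2 (p adj = 0.0535), and it was lost when any of the 4 libraries was left out, where the log2 fold change was 0.35 to 0.50 and the adjusted p 0.0855 to 0.322.

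E2F8 (ENSG00000129173, chromosome 11 from 19224063 to 19241620, minus strand) and E2F7 are the atypical family members that repress E2F targets. E2F8 was at 4.47 and 2.81 CPM in control and at 9.39 and 6.94 CPM in knockdown, from 107, 64, 199 and 140 reads. The groups did not overlap although the libraries within each group were apart, and the means were 3.64 ± 1.17 and 8.17 ± 1.73 CPM (SD, n = 2). E2F8 rose 2.24-fold, or by 1.16 on the log2 scale (SE 0.25, 95% interval 0.60 to 1.73, p adj = 0.0187, edgeR). Leaving out 1 library gave 0.87 to 1.54, with the call kept each time.

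E2F7 (ENSG00000165891, chromosome 12 from 77021248 to 77065569, minus strand) was at 225.8 and 212.8 CPM in control and 273.0 and 241.1 CPM in knockdown. The lower knockdown library lay above the higher control library, but the knockdown libraries were far apart, with means of 219.3 ± 9.17 and 257.0 ± 22.5 CPM (SD, n = 2). The difference of 0.23 on the log2 scale did not pass the test (SE 0.13, 95% interval -0.07 to 0.52, p adj = 0.31, edgeR). With the replicate number as a block, E2F7 was called higher (p adj = 0.000906, edgeR). Whether the fold changes of E2F7 and E2F8 differ was not tested.

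E2F4 (ENSG00000205250, chromosome 16 from 67192155 to 67198918, plus strand), the repressor E2F of resting cells, was at 85.3 and 87.2 CPM in control and at 107.3 and 108.9 CPM in knockdown. Libraries of the same group were nearly equal, and the means were 86.3 ± 1.28 and 108.1 ± 1.13 CPM (SD, n = 2). On the log2 scale the difference was 0.33 (SE 0.11, 95% interval 0.07 to 0.58). It did not pass the threshold after adjustment over all genes (p adj = 0.1, edgeR). With the replicate number as a block, E2F4 was called higher (p adj = 8.45e-05, edgeR).

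None of the 3 pocket protein genes was called in either direction by the main edgeR fit, and their median log2 fold change was 0.21. At an unadjusted p below 0.05 there were 1 higher and 0 lower, where all tested genes gave 14.5% and 11.8%. With the replicate number as a block, edgeR called RB1 (p adj = 0.00608) and RBL1 (p adj = 0.000796) higher. RB1 (ENSG00000139687, chromosome 13 from 48303744 to 48599436, plus strand), the retinoblastoma tumor suppressor, was at 89.1 and 85.7 CPM in control and at 96.4 and 106.3 CPM in knockdown. With means of 87.4 ± 2.37 and 101.4 ± 6.98 CPM (SD, n = 2), its log2 fold change was 0.21 (SE 0.12, 95% interval -0.05 to 0.48, p adj = 0.288, edgeR). RBL1 (ENSG00000080839, chromosome 20 from 36996349 to 37095997, minus strand) is the pocket protein of cycling cells. E2F words were found in its promoter and not in that of RBL2, and the promoter of RB1 was not searched. The level of RBL1 was 42.8 and 42.6 CPM in control and 56.7 and 50.2 CPM in knockdown. The control libraries of RBL1 were almost identical and the knockdown libraries less so (means 42.7 ± 0.145 and 53.5 ± 4.55 CPM, SD, n = 2), and the log2 fold change was 0.32 (SE 0.12, 95% interval 0.05 to 0.59, p adj = 0.12, edgeR). RBL2 (ENSG00000103479, chromosome 16 from 53433977 to 53491648, plus strand), the pocket protein of resting cells, had the smallest fold change of the 9 genes. It was at 63.6 and 60.6 CPM in control and at 66 and 67.2 CPM in knockdown (means 62.1 ± 2.16 and 66.6 ± 0.872 CPM, SD, n = 2), a log2 fold change of 0.10 (SE 0.11, 95% interval -0.15 to 0.36, p adj = 0.625, edgeR). Genes on the opposite strand, AKTIP among them, share 16.4% of the exon bases of RBL2 and 3.58% of those of RBL1, and the library kit is not stated to mark strand, so that reads in these stretches cannot be assigned with certainty. For the other 7 genes the overlap was 0 to 0.169%.

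**Figure D3:**
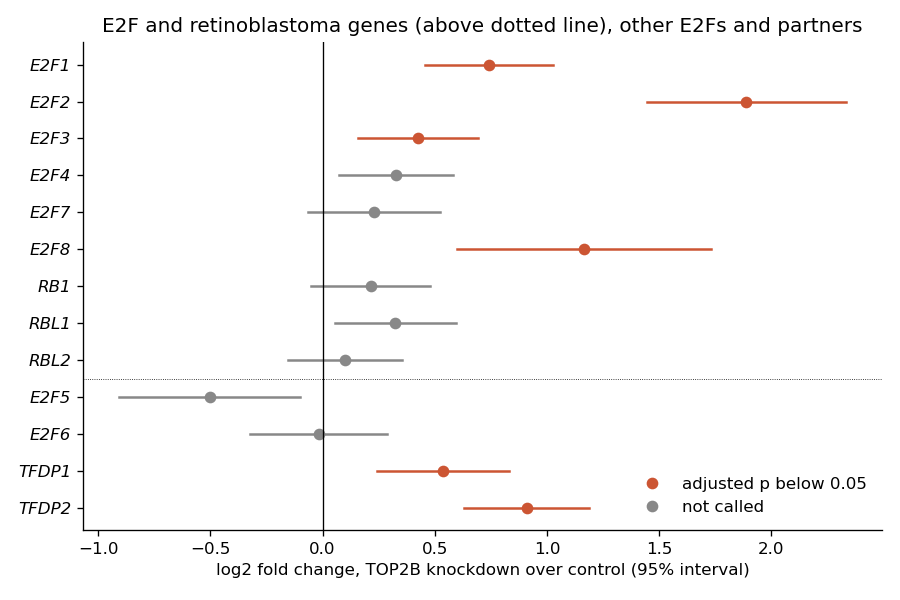
Log2 fold change (TOP2B knockdown over control) of the 9 genes, above the dotted line, and of the other E2F and dimer partner genes, below it; bars are 95% intervals of the edgeR fit. E2F2 (1.89) and E2F8 (1.16) lie farthest to the right, the intervals of E2F7, RB1 and RBL2 include 0, and E2F5 (-0.50) is the gene farthest to the left.

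To set the genes beside each other, the level was expressed per kilobase of merged exons, on a scale of CPM per kb. In control cells the order of the mean levels was E2F7 (34.9), E2F4 (24), E2F1 (14.7), RB1 (13.6), E2F3 (11.1), RBL2 (7.66), RBL1 (7.17), E2F8 (0.880) and E2F2 (0.502). E2F1 and RB1 overlapped in control (13.4 to 16 against 13.3 to 13.8 CPM per kb), so that these neighbors did not differ beyond their spread. The other neighboring pairs did not overlap. In knockdown cells E2F1 reached 24.5 CPM per kb against 15.8 for RB1, E2F2 reached 1.86 and E2F8 1.98, and the libraries of E2F2 (1.98 and 1.74) and E2F8 (2.27 and 1.68) overlapped. The order depends on the gene model. With the length of the canonical transcript instead of merged exons, E2F4 came first (40.9 in control) and E2F7 second (38.3), RB1 (18.3) came before E2F1 (14.7), and RBL2 (12.8) before E2F3 (11.4). E2F8 and E2F2 stayed last with both lengths.

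**Figure D4:**
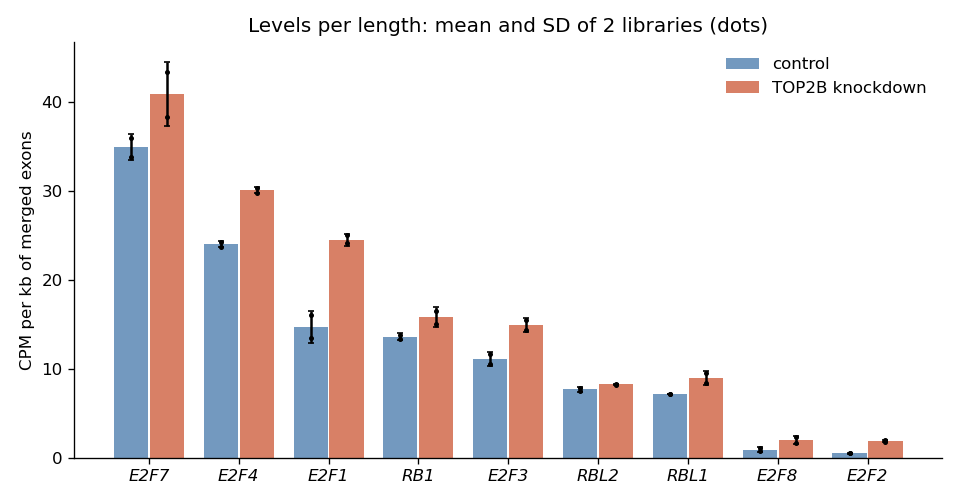
Level of the 9 genes in CPM per kb of merged exons. Bars are the mean of the 2 libraries of a group with the SD, and dots are the libraries. E2F7 and E2F4 are the highest in both groups, and E2F2 and E2F8 the lowest. E2F1 has the widest gap between the group means (14.7 in control, 24.5 in knockdown).

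The RNA levels of the roles were summed on the same scale, and protein levels and phosphorylation were not part of these data. E2F1, E2F2 and E2F3 together were at 25.5 and 27 CPM per kb in control and at 41.5 and 41.1 in knockdown. The atypical repressors E2F7 and E2F8 together were at 37 and 34.5 in control and at 45.7 and 40 in knockdown. The 3 pocket proteins together were at 28.9 and 27.9 in control and at 32.6 and 33.3 in knockdown. With merged exons as the length, the ratio of the activator sum to the pocket protein sum was therefore 0.883 and 0.968 in control and 1.27 and 1.24 in knockdown, and the groups did not overlap. The ratio of E2F1 to RB1 was 0.966 and 1.20 in control and 1.61 and 1.51 in knockdown, and that of E2F1 to E2F4 was 0.563 and 0.659 in control and 0.807 and 0.825 in knockdown. Within the activators the composition moved as well, since E2F2 made up 1.80% and 2.02% of their sum in control and 4.77% and 4.24% in knockdown. For the atypical pair, E2F8 to E2F7 was 0.0301 and 0.0201 in control and 0.0524 and 0.0438 in knockdown, while RBL1 to RBL2 was 0.916 and 0.957 in control and 1.17 and 1.02 in knockdown. The size of a ratio depends on the gene model. With the canonical transcript length the activator to pocket protein ratio was 0.658 and 0.722 in control and 0.961 and 0.926 in knockdown, so that it stayed below 1. On that length E2F1 to E2F4 was 0.330 and 0.387 in control and 0.473 and 0.484 in knockdown, E2F1 to RB1 was 0.716 and 0.888 against 1.19 and 1.12, and RBL1 to RBL2 was 0.574 and 0.600 against 0.733 and 0.638. The direction of these 4 ratios was the same with both lengths, and the groups did not overlap with either. With 2 libraries against 2 the smallest p an exact two-sided permutation test can give is 0.333, which each of these sums and ratios reached, so that this test could not pass a threshold of 0.05 for any of them.

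The genes most like each called gene were found as those with the smallest root mean square difference of centered log2 CPM over the 4 libraries, among 9468 other genes whose mean was 10 CPM or more. Closest to E2F1 were ABLIM1, an actin-binding protein (difference 0.02), RNASEH2C, a subunit of ribonuclease H2 (0.02), and MCM5, a subunit of the replicative helicase (0.02). PLEKHA7 (0.06), WDR18 (0.12) and BACE2 (0.16) were closest to E2F2, and CELSR2 (0.06), PPP1R3E (0.07) and SREBF1 (0.08) to E2F8. NEMP2 (0.0037), LINC01278 (0.0072) and CNTROB (0.0113) were closest to E2F3. Their fold changes were of similar size, such as 0.72 for MCM5 beside 0.74 for E2F1 on the log2 scale, and 4 libraries leave little more for a profile to hold.

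Of the other E2F genes and dimer partners, 4 of 5 were tested, and 2 were called higher and 0 lower by edgeR, against 6.66% and 4.18% of all tested genes. At an unadjusted p below 0.05 there were 2 higher and 1 lower (14.5% and 11.8% of all tested genes), and DESeq2 called 0 lower. Both called genes are partners that form the DNA-binding dimer. TFDP2 was at 25.8 and 24.9 CPM in control and at 44.9 and 50.4 CPM in knockdown, a log2 fold change of 0.91 (SE 0.12, p adj = 0.00243, edgeR). TFDP1, the more abundant partner, was at 150.5 and 168.0 CPM in control and at 218.7 and 243.7 CPM in knockdown. Its log2 fold change was 0.54 (SE 0.13, p adj = 0.0294, edgeR), and the call was lost without control replicate 1 (p adj = 0.189), control replicate 2 (0.0609) or knockdown replicate 2 (0.207). The groups of both partners did not overlap. E2F5, the other repressor that works with pocket proteins, was at 7.06 CPM in both control libraries and at 5.05 and 4.91 CPM in knockdown, and its log2 fold change of -0.50 did not pass the test (SE 0.18, p adj = 0.107, edgeR). Genes on the opposite strand share 18.8% of the exon bases of E2F5. E2F6, a repressor that acts without pocket proteins, was at 19 and 18.8 CPM in control and at 17.7 and 19.7 CPM in knockdown, with overlapping groups and a log2 fold change of -0.02 (SE 0.14, p adj = 0.955, edgeR). TFDP3 had 0 counts in all 4 libraries.

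In resting cells RBL1 or RBL2 joins E2F4, a TFDP partner and the MuvB core to form the repressor complex DREAM, and in cycling cells the same core binds MYBL2 and FOXM1 and switches mitotic genes on. Of the 9 genes of this group, 1 (11.1%) was called higher and 0 lower by edgeR, beside 6.66% and 4.18% of all tested genes, with a median log2 fold change of 0.07. At an unadjusted p below 0.05 there were 2 higher and 1 lower, beside 14.5% and 11.8%, and DESeq2 called 0 lower. With 9 genes these counts are near the background, and no result about the group is read from them. The called gene was MYBL2 (B-MYB), which is itself a classical E2F target. MYBL2 was at 36.2 and 45.4 CPM in control and at 83.3 and 91 CPM in knockdown, a log2 fold change of 1.10 (SE 0.14, p adj = 0.00175, edgeR). FOXM1, the forkhead factor of the mitotic program, was at 257.3 and 297.1 CPM in control and at 322.5 and 329.2 CPM in knockdown and did not pass (0.23, SE 0.14, p adj = 0.317, edgeR). MYBL1 was at 96.4 and 95.5 CPM in control and at 84.3 and 72.3 CPM in knockdown (-0.29, p adj = 0.163). The MuvB core subunits LIN9 (0.40, p adj = 0.124), LIN54 (0.20, p adj = 0.353), LIN52 (-0.16, p adj = 0.548), RBBP4 (0.07, p adj = 0.765) and LIN37 (-0.47, p adj = 0.321) did not pass either. Other genes share 54.0% of the exon bases of LIN37, 22.8% of those of RBBP4 and 15.9% of those of FOXM1. DYRK1A, the kinase that starts DREAM assembly, stayed at 65.3 to 68.7 CPM in the 4 libraries (-0.02, p adj = 0.938).

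Upstream of the pocket proteins, 3 of 9 G1 cyclins and kinases were called higher and 0 lower by edgeR, against 6.66% and 4.18% of all tested genes, with a median log2 fold change of 0.50. At an unadjusted p below 0.05 there were 6 higher and 1 lower, against 14.5% and 11.8%, and DESeq2 called 0 lower. The 6 genes not called by edgeR are named after their values were seen. CCND1 (0.50, p adj = 0.106), CCNE1 (0.58, p adj = 0.0987) and CDK4 (0.39, p adj = 0.0718) had log2 fold changes above 0. CCND2 (-0.58, p adj = 0.0779), CCND3 (-0.25, p adj = 0.306) and CDK6 (-0.09, p adj = 0.675) lay below 0. A gene on the opposite strand shares 44.2% of the exon bases of CDK4. CCNE2, a cyclin that drives CDK2 at the start of S phase and is an E2F target, was at 7.72 and 6.80 CPM in control and at 16.3 and 15.1 CPM in knockdown, a log2 fold change of 1.11 (SE 0.16, p adj = 0.00286, edgeR). Its groups were well separated, though genes on the opposite strand share 37.1% of its exon bases. CDK2, its kinase, was at 40.1 and 44.9 CPM in control and at 62 and 67.1 CPM in knockdown (0.60, p adj = 0.0137). The call was lost without control replicate 1 (log2 fold change 0.52) or knockdown replicate 2 (0.53). Genes on the opposite strand share 16.8% of the exon bases of CDK2. CDC25A, the phosphatase that activates CDK2, was at 23.9 and 26.9 CPM in control and at 39.4 and 35.4 CPM in knockdown (0.56, p adj = 0.0241), and the call was lost without control replicate 1 or knockdown replicate 1 (p adj = 0.111 each). Without control replicate 1 the number of called genes was 1.

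Among 7 inhibitors of cyclin-dependent kinases 1 (14.3%) was called higher and 0 lower by edgeR, beside 6.66% and 4.18% of all tested genes, and DESeq2 called 1 lower. At an unadjusted p below 0.05 there were 1 higher and 3 lower, beside 14.5% and 11.8%. CDKN2C (p18), an inhibitor of CDK4 and CDK6 that is also a known E2F target, was at 28 and 27.1 CPM in control and at 43.5 and 42.4 CPM in knockdown, a log2 fold change of 0.64 (SE 0.12, p adj = 0.00908, edgeR). A gene on the opposite strand shares 20.4% of the exon bases of CDKN2C. None of the other 6 passed the test by edgeR, and they are named after their values were seen. CDKN1A (p21), which responds to p53, was at 464.5 and 664.3 CPM in control and at 303.5 and 425.0 CPM in knockdown (-0.63, p adj = 0.0863). CDKN1B (p27) differed by -0.36 on the log2 scale (p adj = 0.0803) and CDKN2B (p15) by -0.49 (p adj = 0.059), and both knockdown libraries of these 3 genes lay below both control libraries. CDKN2A, which encodes p16, lay higher in both knockdown libraries, with 78.7 and 81.7 CPM in control and 90.5 and 102.3 CPM in knockdown (0.26, p adj = 0.197). A gene on the opposite strand shares 15.3% of the exon bases of CDKN2A. In CDKN2D (-0.04, p adj = 0.917) and CDKN1C (0.23, p adj = 0.806) the groups overlapped.

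The genes that E2Fs are known to control at the entry to S phase moved in the same direction as the activators. Of 63 G1/S target genes, which encode replication, nucleotide synthesis, chromatin assembly and repair proteins, 48 (76.2%) were called higher and 0 lower by edgeR, against 6.66% and 4.18% of all tested genes. The list was chosen with earlier results of these data known, so its share describes it and is not a test. At an unadjusted p below 0.05 there were 60 higher and 0 lower, against 14.5% and 11.8% of all tested genes, DESeq2 called 47 higher, and without any 1 library 34 to 41 were called higher. All 63 log2 fold changes were above 0, from 0.02 to 1.40, with a median of 0.63. In 60 genes both knockdown libraries lay above both control libraries, beside 27.7% of all tested genes. The largest rise was in CDCA7, a chromatin factor, with 10.3 and 11 CPM in control and 27.1 and 29 CPM in knockdown (1.40, p adj = 0.000624, edgeR). POLD1, the catalytic subunit of DNA polymerase delta, was at 24.4 and 24.7 CPM in control and at 63.7 and 62.3 CPM in knockdown (1.36, p adj = 0.00048). Another gene on the same strand shares 8.63% of the exon bases of POLD1. LIG1, the replicative DNA ligase, rose by 1.19 (p adj = 0.000716), from 29.7 and 27.2 CPM to 67.8 and 62.1 CPM. DNMT1, the maintenance DNA methyltransferase, rose by 1.12 (p adj = 0.00117), from 145.3 and 153.4 CPM to 329.4 and 318.6 CPM. In each of these 4 genes the libraries of a group were close together and the groups far apart. Of the 50 G1/S target genes with a promoter entry, 30 (60.0%) held at least 1 E2F word and 12 (24%) at least 2, beside 13.4% and 1.33% of all tested genes. These genes were listed as E2F targets, so words in their promoters are no separate support.

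Genes of mitosis that DREAM and the MuvB complexes are known to control had a lower median. Of 35 such genes 5 (14.3%) were called higher and 1 lower by edgeR, beside 6.66% and 4.18% of all tested genes, and 12 and 1 at an unadjusted p below 0.05, beside 14.5% and 11.8%. In 27 of the 35 both knockdown libraries lay above both control libraries, beside 27.7% of all tested genes. The median log2 fold change was 0.24, and 7 of 29 promoters (24.1%) held an E2F word. TTK, a spindle checkpoint kinase, was at 38.4 and 36.7 CPM in control and at 64.4 and 65.9 CPM in knockdown (0.79, p adj = 0.00307, edgeR). KIF11, the motor that separates spindle poles, was at 101.1 and 90.5 CPM in control and at 166.5 and 160.0 CPM in knockdown (0.77, p adj = 0.00473). KIF20A (0.49, p adj = 0.0356) and NUSAP1 (0.49, p adj = 0.0255) were also called, as was CDK1 (0.41, p adj = 0.0497), which is named here after its value was seen. The call of NUSAP1, of whose exon bases 86.8% are shared with other genes, was lost without any of the 4 libraries, and that of KIF20A without control replicate 2 or either knockdown library. The number called higher was 2 without control replicate 2 or knockdown replicate 1 and 3 without knockdown replicate 2. CKS1B, a cofactor of cyclin-dependent kinases, went the other way, from 36 and 43 CPM to 25.3 and 25.9 CPM (-0.63, p adj = 0.0167), and this call was lost without control replicate 2 (p adj = 0.0974). Whether the G1/S and the mitotic genes differ in their fold changes was not tested.

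**Figure D5:**
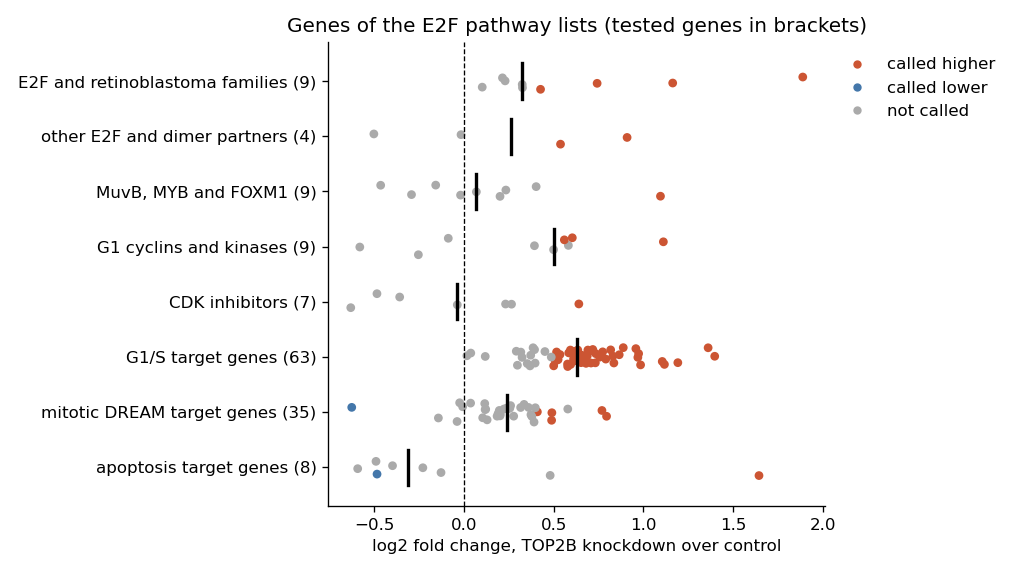
Log2 fold changes (TOP2B knockdown over control) of the tested genes of 8 groups around the E2F and retinoblastoma families; each point is a gene, colored by its edgeR call, and the vertical bar is the median of the group. The G1/S target genes all lie to the right of 0 (median 0.63), while the mitotic genes (0.24) and the MuvB, MYB and FOXM1 genes (0.07) are nearer to it.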

How the data were processed

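RNA was extracted on day 5, and libraries were sequenced with single-end reads. The authors checked reads with FastQC 0.11.6, aligned them with STAR 2.5.4a to GRCh38 and counted reads per gene (Gencode v24, primary assembly) in the same run. Raw, unscaled counts were deposited. Stranded paired-end sequencing is named in the headers, against the single-end protocol, and whether counting used strand is not given in the sources used here. The 4 second copies of the columns held equal values and were not used.

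Symbols (98.9% of the tested genes), positions and exon lengths came from GENCODE v44, and promoters from RefSeq. A gene needed 10 or more counts in 2 or more libraries. Counts were scaled by TMM and tested with the quasi-likelihood test of edgeR 4.0.16 (R 4.3.3), with all 4 libraries and condition as the term, and p-values were adjusted by Benjamini-Hochberg over the 15356 genes. Calls were made below an adjusted p of 0.05. CPM are counts divided by the TMM-scaled library size in units of 1e6. Alternatives were DESeq2 1.42.0 (its size factors and its Wald test), library size alone, no filter, the replicate number as a block, and leaving out each library. SE and intervals came from the edgeR fit and did not rest on the spread of a gene's own libraries alone. RB1, with SDs of 2.37 (control) and 6.98 CPM (knockdown), had an SE of 0.118. E2F4, with SDs of 1.28 and 1.13 CPM, had an SE of 0.114. The intervals cover variation between libraries, at 2 a group, and no other source.

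The genes and the lists were chosen with earlier results of these data known. Named were the 9 genes, TOP2B, all other E2F, partner, MuvB, MYB and FOXM1 genes, the called cyclin, kinase, inhibitor and apoptosis genes (1 apoptosis gene is not reported here), the 4 called G1/S and mitotic genes with the largest rise and with the largest fall, and for each called member of the 9 the 3 genes most like it.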

Additional observations from a re-analysis of the deposited data

How the results depend on the processing

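Of 81 fold changes of the 9 genes under an alternative, 70 kept their direction and their side of the threshold, 7 lost the call (all of E2F3), 4 gained it and 0 reversed. Over all 342 values of named genes the numbers were 305, 26, 9 and 2. The reversed values were small, with E2F6 between -0.11 and 0.0629 and DYRK1A between -0.053 and 0.0026 without 1 library. With the replicate number as a block, 8 of the 9 genes were called higher, with p adj = 8.45e-05 for E2F4, 0.000796 for RBL1, 0.000906 for E2F7 and 0.00608 for RB1 (edgeR). The block also gave 1 partner gene called lower (E2F5, p adj = 0.00767), 4 MuvB, MYB and FOXM1 genes higher and 1 lower, 6 cyclins and kinases higher and 2 lower, 2 inhibitors higher and 3 lower, 23 mitotic genes higher and 2 lower, and 2 apoptosis genes higher and 5 lower. The replicate numbers are shared by 2 pairs only, and no label ties them to a common day; the differences between replicates 1 and 2 in the control and in the knockdown libraries had a correlation of 0.479 across genes. Without the filter on low counts 5 cyclins and kinases were called higher and 1 lower, and 2 inhibitors lower, and DESeq2 called 1 inhibitor lower. Leaving out 1 library, with a lone library assumed to vary like the other group, gave 1 to 2 partner genes higher, 1 to 4 cyclins and kinases higher, 0 to 1 inhibitors lower, 2 to 4 mitotic genes higher and 0 to 1 lower, and 0 to 1 apoptosis genes lower. The canonical transcript length for levels was chosen after seeing the data, and it moved the control level of E2F4, E2F7, RB1, RBL1 and RBL2 by more than the spread between replicates. The cause of these differences between settings was not tested. With 2 libraries a group and 60 to 107 reads in a control library for E2F2 and E2F8, the intervals are wide.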

Other observations

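E2F1 is also known to switch on genes of programmed cell death when it is in excess. Of 8 such apoptosis target genes 1 was called higher and 1 lower by edgeR, beside 6.66% and 4.18% of all tested genes, and 2 and 3 at an unadjusted p below 0.05, beside 14.5% and 11.8%, so that no result about the group is read from the counts. The group had a median log2 fold change of -0.31. TP73, a relative of p53 and a direct E2F1 target, was low in all libraries, with 1.34 and 0.702 CPM in control and 3.35 and 3.07 CPM in knockdown, from 32, 16, 71 and 62 reads, and rose by 1.64 on the log2 scale (SE 0.33, p adj = 0.0126, edgeR). The groups of TP73 did not overlap. A gene on the opposite strand shares 9.35% of the exon bases of TP73.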
